A study of Mus musculus with 23 samples.

Results

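Abca1, Abcg1, Apoe and Apoc1 are genes through which macrophages send cholesterol out of the cell. Their loci were examined in 5 lists of ChIP-seq peaks, 1 for the nuclear receptor LXRβ and 4 for p65. All peaks were taken whose centre lay in a 160 kb window at Abca1 on mm9 chromosome 4, a 110 kb window at Abcg1 on chromosome 17 or an 80 kb window on chromosome 7 that holds Apoe with Apoc1. This gave 52 of the 58278 listed peaks, with 29 in the Abca1 window, 19 in the Abcg1 window and 4 in the Apoe window. The 52 peaks comprised 13 of 2743 LXRβ peaks, 17 of 22585 p65 peaks from NCoR knockout macrophages after KLA, 18 of 30021 from wild type macrophages after KLA, 3 of 2227 from untreated knockout macrophages and 1 of 702 from untreated wild type macrophages. Peaks of different lists that overlapped were joined, which left 29 sites.

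The LXRβ library came from RAW264.7, an established mouse macrophage line, carrying the biotin ligase BirA and an LXRβ with a biotin tag (BLRP). These cells were given 1 µM of GW3965, a synthetic LXR agonist, for 2 h, and the tagged receptor was pulled down with streptavidin. The p65 libraries came from thioglycollate-elicited peritoneal macrophages of male C57Bl/6 mice aged 6 to 8 weeks, either NCoR fl/fl LysM-Cre +/- (knockout) or NCoR fl/fl LysM-Cre -/- (wild type). Both genotypes therefore carried the floxed NCoR allele, and the knockout rested on a Cre driven by a myeloid gene promoter, with no measure of the NCoR left in these lists. KLA (Kdo2-lipid A), an agonist of the endotoxin receptor TLR4, was given at 100 ng/ml for 1 h. All cells were kept overnight in low serum beforehand, the untreated ones included. LXRβ and p65 were thus mapped in different cells, and no list gives LXRβ after KLA or p65 after GW3965.

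LXRs bind DNA together with RXR, typically at direct repeats of the half-site AGGTCA with 4 bases between the copies, and switch on cholesterol efflux genes when oxysterols or synthetic agonists bind them. Without ligand, corepressors such as NCoR hold LXR target genes down. Abca1 loads cholesterol and phospholipid onto lipid-poor apolipoprotein A-I, and Abcg1 moves cholesterol to larger high-density lipoprotein particles. Apoe is secreted by macrophages and accepts cellular lipid, while Apoc1 is a small apolipoprotein encoded beside it, and the genes of this cluster respond to LXR in mouse and human macrophages. p65 (RelA) is a subunit of NF-κB, and TLR4 signalling sends it to the nucleus.

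The direct repeat that LXR recognises is known from the Abca1 promoter, so the 250 bases before the Abca1 start are shown, from RefSeq on GRCm38.p6 (chr4:53159896-53160145, minus strand), written 5′ to 3′ along the gene. Capitals mark the match closest to a direct repeat of AGGTCA with 4 bases between the copies, searched on both strands.
Abca1: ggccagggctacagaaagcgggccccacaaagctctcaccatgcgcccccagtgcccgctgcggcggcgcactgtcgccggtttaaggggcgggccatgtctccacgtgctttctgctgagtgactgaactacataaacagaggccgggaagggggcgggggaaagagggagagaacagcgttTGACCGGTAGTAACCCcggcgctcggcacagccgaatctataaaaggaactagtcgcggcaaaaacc
This element lay 67 to 52 bases before the start. On the opposite strand it reads as the half-sites GGGTTA, with 2 mismatches to AGGTCA, and CGGTCA, with 1 mismatch. A match with at most 3 mismatches was found in 18.5% of 32851 mouse promoters of this length, and one with at most 2 mismatches in 2.57%. RefSeq entries were found for 2 of the 4 genes, with 1 promoter for Abca1 and 3 for Apoe. The best match in the Apoe promoters had 4 mismatches, a level reached in 70.6% of all promoters. An exact AGGTCA, found in 14.0% of all promoters, the PU.1 core GGAAGT, found in 19.7%, and the NF-κB consensus, found in 13.8%, were in none of the 4 promoters. The peaks are on mm9 and these promoters on GRCm38.p6, and coordinates were not carried between the builds, so no peak is placed on a promoter, exon or intron here.

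LXRβ sites at Abca1 and Abcg1 were among the tallest of the whole LXRβ list. Peak height is given throughout as tags per 10000000 tags of the library, with the 95% Poisson interval of the tags where an interval follows, which covers counting error only. Of the 50 tallest LXRβ peaks, 9 lay in these windows, 6 at Abcg1 and 3 at Abca1; the number 50 was chosen after the values were seen. The 100 tallest held the same count of 9, and 9 of the 87 peaks of at least 40 tags per 10000000, or 10.3%, were in the 3 windows. The 13 LXRβ peaks had a median height of 61.0, against a median of 10.9 in the whole list, and 12 of them were above that median. The heights step by 0.91 per tag, which corresponds to 10989011 tags and not to the 11758634 tags in the header, so absolute heights carry that uncertainty and ranks do not.

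**Figure D1:**
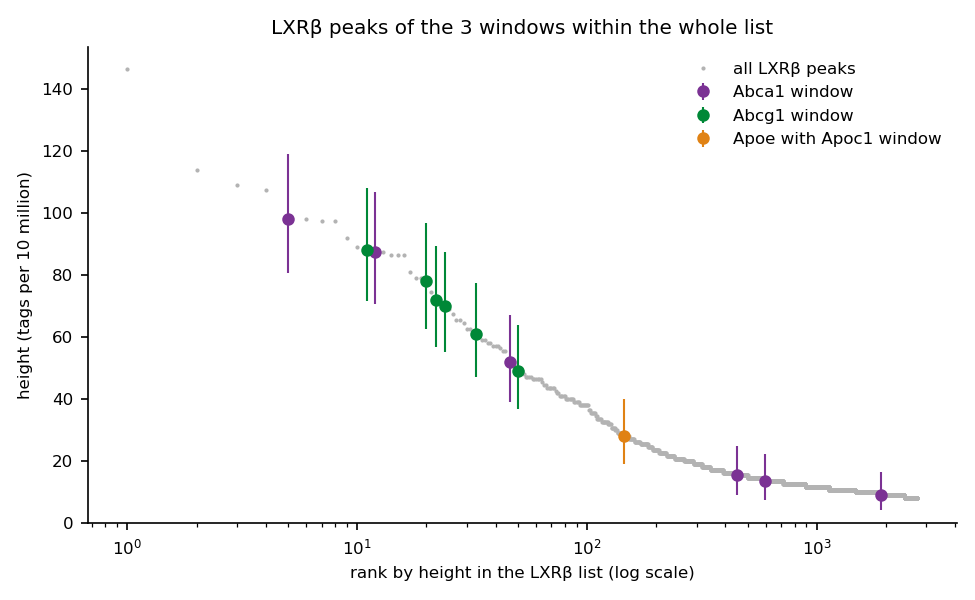
Height (tags per 10000000, with 95% Poisson intervals) against rank on a log axis for all 2743 LXRβ peaks (grey points) and for the 13 peaks of the Abca1, Abcg1 and Apoe windows (coloured). All 6 Abcg1 peaks and 3 of the 6 Abca1 peaks rank 50 or better, the Apoe peak ranks 145, and the other 3 Abca1 peaks rank 451 or lower.

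At Abca1, LXRβ was listed at 6 places, and their heights ran from 9.1 to 98.3. The tallest, chr4:53128847-53128967, had a height of 98.3 (80.6 to 119) and ranked 5 of 2743. The next, chr4:53171688-53171808, had 87.4 (70.8 to 107) and ranked 12, and its neighbour 1063 bp further on, chr4:53172751-53172871, had 51.9 (39.3 to 67.2) and ranked 46. These 3 formed a tall class, in which the interval of the 51.9 peak did not reach the intervals of the first pair. The other 3 peaks were low: chr4:53133365-53133485 had 15.5 and chr4:53094900-53095020 had 13.7. The lowest, chr4:53134835-53134955, had 9.1, which rested on 10 tags and ranked 1895. In 160 kb tiles of the genome, 6 or more LXRβ peaks were found in 21 of 16475 tiles, or 0.127%.

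At Abcg1, 6 LXRβ peaks were listed within 37.1 kb, and all were tall. The tallest, chr17:31204103-31204223, had a height of 88.3 (71.6 to 108) and ranked 11. A pair of neighbours at one end, chr17:31175453-31175573 and chr17:31176667-31176787, had 78.3 and 71.9. The peak at chr17:31195780-31195900 had 70.1, chr17:31210391-31210511 had 61.0 and chr17:31212592-31212712 had 49.2 (36.9 to 64.1), which ranked 50. Neighbours in this order did not differ beyond their counting intervals, while the interval of the lowest lay below that of the tallest. In 110 kb tiles, 6 or more LXRβ peaks were found in 13 of 23958, or 0.0543%.

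The Apoe and Apoc1 window held 1 LXRβ peak, chr7:20278808-20278928, with a height of 28.2 (19.2 to 40) and rank 145. It was lower than each of the 9 tall peaks at Abca1 and Abcg1 and higher than the 3 low peaks at Abca1, although its interval overlapped those of the 51.9 and 49.2 peaks and of the 15.5 and 13.7 peaks. In RefSeq's gene order Apoc1 is next to Apoe, with Apoc4 and Apoc2 on one side and Tomm40 on the other, so a peak here cannot be assigned to 1 gene. In 80 kb tiles, at least 1 LXRβ peak was found in 6.30%.

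**Figure D2:**
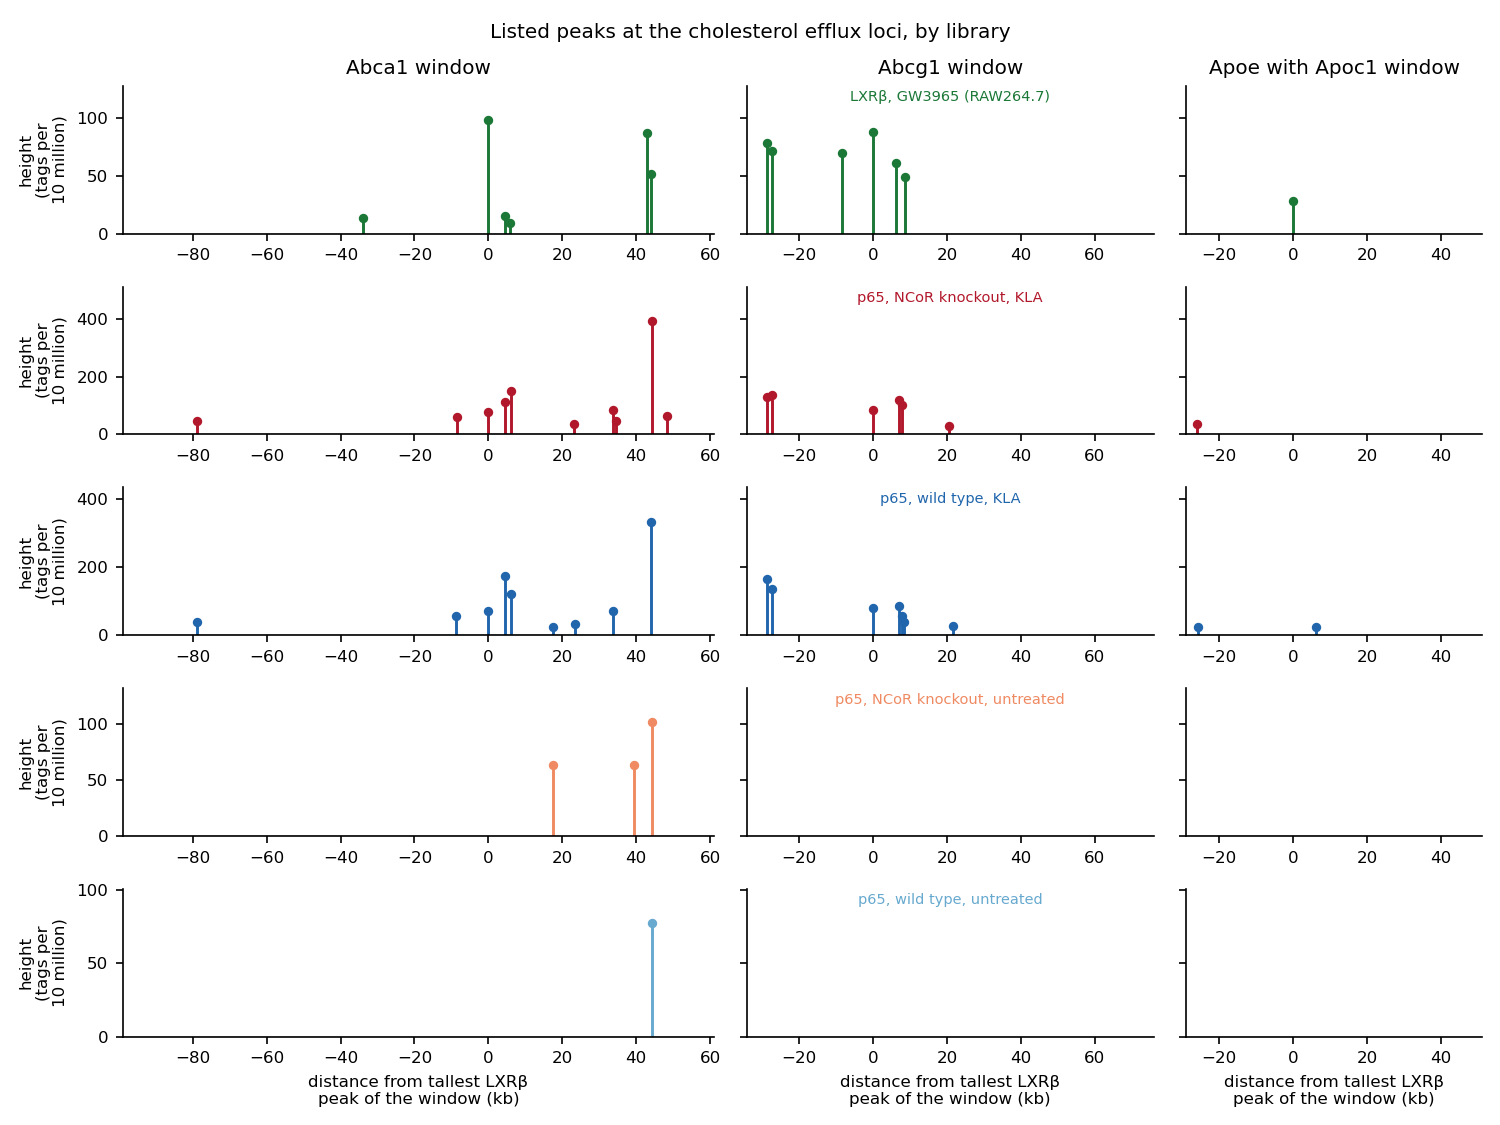
Height of every listed peak (tags per 10000000, a separate scale for each row of panels) by its distance in kb from the tallest LXRβ peak of its window, in 5 rows for LXRβ, knockout KLA p65, wild type KLA p65, untreated knockout p65 and untreated wild type p65. KLA p65 peaks of each genotype overlap 3 of 6 LXRβ peaks at Abca1, 3 of 6 at Abcg1 and 0 of 1 at Apoe. This is 46.2% of the 13 LXRβ peaks, against 34.8% (knockout) and 42.4% (wild type) of all LXRβ peaks. Untreated p65 peaks are listed only in the Abca1 window.

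Where p65 was bound after KLA, it met LXRβ at 6 of the 13 LXRβ peaks, in knockout and in wild type macrophages alike, 3 at Abca1 and 3 at Abcg1. This was 46.2% of the LXRβ peaks (exact binomial 95% interval 19.2% to 74.9%) in each genotype, beside 34.8% of all LXRβ peaks that overlapped a knockout KLA p65 peak and 42.4% that overlapped a wild type one, both of which lie inside that interval. Counted by centres within 500 bp, 7 LXRβ peaks had a knockout and 8 a wild type KLA p65 peak, against 43.7% and 53.8% of the list. Seen from p65, 6 of 17 knockout KLA peaks (35.3%, 14.2% to 61.7%) and 6 of 18 wild type KLA peaks (33.3%, 13.3% to 59.0%) overlapped LXRβ, against 4.23% and 3.87% of all KLA peaks in those lists. The windows were drawn around known LXR target genes and hold many LXRβ peaks. Whether the high share seen from p65 goes with that was not tested. At the 6 shared sites the LXRβ and p65 centres were 2 to 77 bp apart in knockout and 2 to 65 bp in wild type macrophages.

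Tall and low LXRβ peaks at Abca1 each included some that overlapped p65 and some that did not. The tallest LXRβ peak there (98.3) overlapped p65 peaks of 77.7 in knockout and 70.7 in wild type macrophages. The 9.1 peak, lowest of the 13, overlapped p65 peaks of 149.4 in knockout and 122.6 in wild type macrophages, and the 15.5 peak overlapped 113.5 and 174.5. The second tallest LXRβ peak (87.4) overlapped no p65 peak of either genotype, the nearest p65 centre being 1325 bp away in knockout and 1285 bp away in wild type macrophages. The 51.9 peak did not overlap p65 either, but the tallest p65 peak of the window lay beside it, with centres 262 bp apart in knockout and 222 bp apart in wild type macrophages. The 13.7 peak had no p65 near it, the nearest centre being 25369 bp away in knockout and 25323 bp away in wild type macrophages.

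At Abcg1 the 3 LXRβ peaks that overlapped p65 were the 3 tallest, and the 3 others met no p65 peak. The order at that divide was not resolved, with intervals of 56.9 to 89.6 for the 71.9 peak and 55.3 to 87.6 for the 70.1 peak. The 88.3 peak overlapped p65 of 83.7 in knockout and 80.2 in wild type macrophages. The 78.3 peak overlapped 131.5 in knockout and 165.1 in wild type, and the 71.9 peak 137.4 and 136.8. From the 70.1 peak the nearest p65 centre was 8321 bp away in knockout and 8331 bp in wild type macrophages. From the 61.0 peak it was 648 bp away in knockout and 625 bp in wild type. From the 49.2 peak it was 755 bp away in knockout and 187 bp in wild type, where a p65 peak of 37.7 was listed. The Apoe LXRβ peak also overlapped no p65 peak, and the nearest was a 23.6 peak 6325 bp away in wild type macrophages. Among the 87 LXRβ peaks of at least 40, 26.4% overlapped a knockout and 36.8% a wild type KLA p65 peak, and among the 9 of these in the windows 4 did so in each genotype.

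The tallest p65 peak of the 3 loci lay in the Abca1 window, beside LXRβ and not on it. After KLA it had a height of 394.4 (305 to 502; chr4:53173001-53173145) in knockout macrophages, where it ranked 63 of 22585, and 334.8 (262 to 422; chr4:53172967-53173099) in wild type macrophages, where it ranked 145 of 30021. The knockout over wild type ratio was 1.18 (exact 95% interval of the counts 0.829 to 1.67), an interval that holds 1. Its LXRβ neighbour was the 51.9 peak described above. No other p65 peak in the windows was among the 500 tallest of its KLA list.

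This was also the site listed in all 4 p65 lists. Untreated macrophages had 101.8 (43.9 to 201, 8 tags) in the knockout and 77.2 (28.3 to 168, 6 tags) in the wild type. KLA over untreated was 3.87-fold in knockout (1.86 to 9.35) and 4.34-fold in wild type macrophages (1.90 to 12.2). Per bp of peak width, since widths differ between lists, it was 3.39-fold in knockout and 3.38-fold in wild type macrophages. In untreated cells knockout over wild type was 1.32 (0.401 to 4.61), or 1.08 per bp of peak width. The intervals of both KLA ratios lay above 1, and that between the untreated genotypes held 1, with 1 library behind each value.

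Of 17 knockout KLA peaks 1 overlapped a knockout untreated peak, against 4.08% of the list, and of 18 wild type KLA peaks 1 overlapped a wild type untreated peak, against 1.77%. In neither genotype did the Abcg1 or Apoe window hold an untreated p65 peak. The untreated libraries were shallow, at 786121 tags in the knockout and 777228 in the wild type, and their lowest listed heights were 63.6 and 64.3. Of the KLA peaks with no untreated peak, 10 of 16 in knockout and 8 of 17 in wild type macrophages were taller than that lowest height, with 149.4 and 174.5 the tallest. The upper quartiles of the whole KLA lists, 83.7 in knockout and 66.0 in wild type, also lay above it. The share of such peaks over the whole lists is not given here, so these counts are not a result about the loci. An untreated site below that lowest height could not be listed at this depth. A further pair of untreated knockout peaks at Abca1, chr4:53146466-53146592 and chr4:53168303-53168429, each had 63.6 on 5 tags, the fewest that could be listed. The first overlapped a wild type KLA peak of 23.6 and no knockout KLA peak, and the second met no peak of any list.

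The p65 sites next in height at Abca1 lay on the 15.5 and 9.1 LXRβ peaks. The site of chr4:53133282-53133426 had 113.5 (68.4 to 177) in knockout and 174.5 (123 to 241) in wild type macrophages, a ratio of 0.65 (0.353 to 1.16). Its peak centres were 119 bp apart, the largest distance among the shared sites of the windows. The neighbouring site, chr4:53134900-53135044, had 149.4 in knockout and 122.6 in wild type, a ratio of 1.22 (0.675 to 2.20). The site at chr4:53162661-53162805, away from LXRβ, had 83.7 in knockout and 70.7 in wild type macrophages. The interval of the neighbouring site was 96.7 to 221 in knockout and 80.1 to 180 in wild type macrophages, so its order against the site before it was not resolved in either genotype. Intervals of the genotypes overlapped at each of these sites. The Abca1 window held 10 knockout and 9 wild type KLA p65 peaks. At least 10 knockout peaks were found in 2% of 160 kb tiles, and at least 9 wild type peaks in 5.47%.

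At Abcg1 the 5 tallest p65 sites were of one order of size, with no peak like the tallest one at Abca1. The sites on the LXRβ pair at chr17:31175453-31175573 and chr17:31176667-31176787 had knockout over wild type ratios of 0.796 (0.445 to 1.4) and 1.00 (0.555 to 1.80), and the site on the tallest LXRβ peak had 1.04 (0.476 to 2.25). A pair of p65 sites lay between the last LXRβ peaks without touching them. The first, chr17:31211027-31211171, had 119.5 in knockout and 84.9 in wild type macrophages, a ratio of 1.41 (0.707 to 2.82). The second, chr17:31211825-31211969, had 101.6 in knockout and 56.6 in wild type, a ratio of 1.80 (0.808 to 4.12) on 17 and 12 tags. That was the highest ratio of the windows, and 9.66% of all shared KLA sites had one as high or higher. The Abcg1 window held 6 knockout and 7 wild type KLA p65 peaks. At least 6 knockout peaks were found in 4.32% of 110 kb tiles, and at least 7 wild type peaks in 4.93%.

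The Apoe window held 1 knockout and 2 wild type KLA p65 peaks. At least 1 knockout peak was found in 27.5% of 80 kb tiles, and at least 2 wild type peaks in 20.6%. The one shared site, chr7:20252944-20253088, had 35.9 (6 tags) in knockout and 23.6 (5 tags) in wild type macrophages, a ratio of 1.52 (0.387 to 6.30). A wild type peak of 23.6, again 5 tags, was listed at chr7:20285127-20285259. A p65 site 2840 bp outside the window, at chr7:20332768-20332912, was taller than any inside it, with 119.5 in knockout and 113.2 in wild type macrophages. The peak nearest to an edge from within was the shared site, 3016 bp inside.

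**Figure D3:**
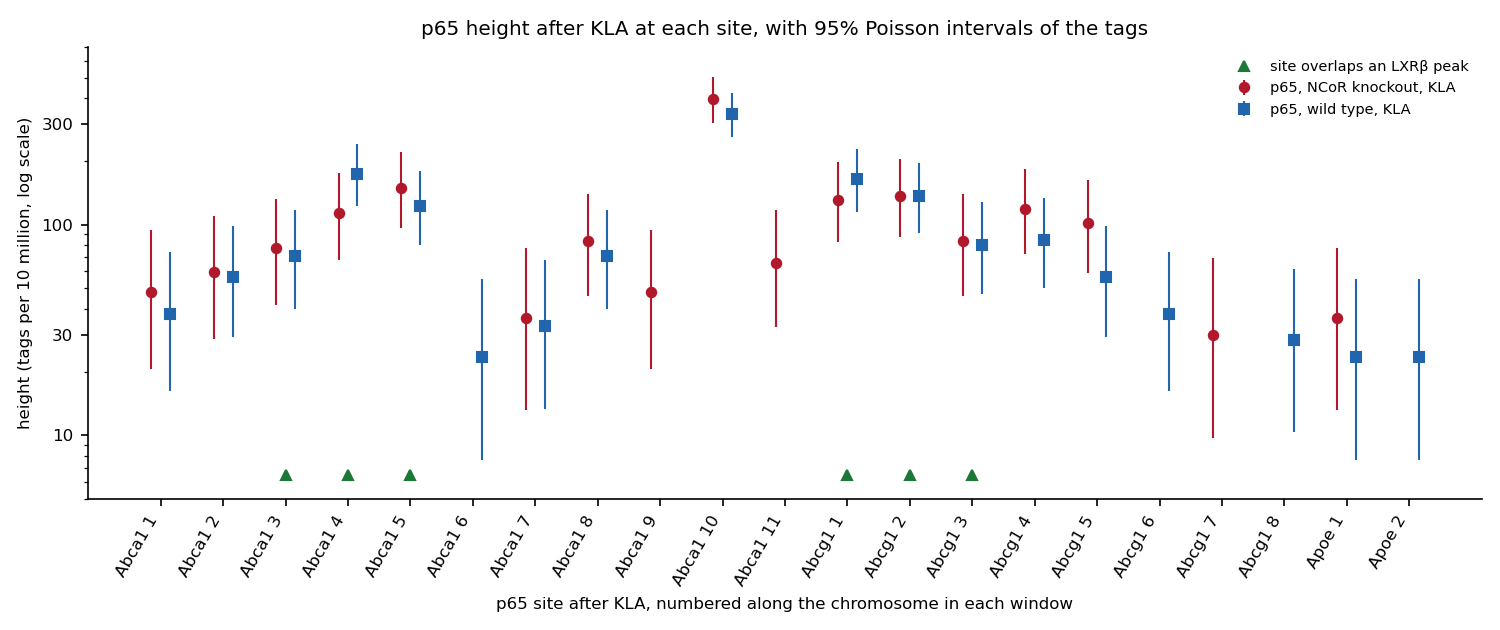
Height of p65 after KLA (tags per 10000000, log axis, 95% Poisson intervals) at each of the 21 KLA p65 sites, numbered along the chromosome in each window, with knockout as circles left of wild type as squares and triangles under sites that overlap an LXRβ peak. The intervals of the genotypes overlap at all 14 sites listed in both, on 5 to 71 tags per peak, and 7 sites are listed in 1 genotype. In the whole lists 71.7% of knockout and 54.0% of wild type KLA peaks overlap a peak of the other genotype.

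After KLA 14 p65 sites of the loci were listed in both genotypes. Of 17 knockout KLA peaks 14 overlapped a wild type one (82.4%, exact binomial 95% interval 56.6% to 96.2%), against 71.7% of the whole list. Of 18 wild type peaks 14 overlapped a knockout one (77.8%, 52.4% to 93.6%), against 54.0%. Both list shares lie inside the intervals. At these 14 sites the median ratio of knockout over wild type height was 1.14, against 1.09 over all 16202 shared KLA sites, whose quartiles were 0.845 and 1.4. Ratios of 1.5 or more were found at 2 of 14 sites, against 19.7% of all shared sites, and of 1/1.5 or less at 1, against 9.98%. Every one of the 14 intervals held 1, on 5 to 71 tags per peak. At such counts an interval that holds 1 does not show equal heights. The share of all shared sites whose interval holds 1 is not given here. The wild type library was deeper, at 2120392 tags against 1673506 in the knockout, its list was called without an input and its peaks were 132 bp wide against 144 bp. Per bp of width the median ratio at the 14 sites was 1.04, against 0.996 over all shared sites.

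The 6 shared sites on LXRβ had ratios of 0.65 to 1.22 with a median of 1.02. The 8 that did not overlap LXRβ had ratios of 1.06 to 1.80 with a median of 1.23. Some of these 8 lay beside LXRβ. In knockout macrophages the tallest Abca1 site was 262 bp from an LXRβ centre. The Abcg1 sites with ratios of 1.41 and 1.80 were 648 and 755 bp from one. In the whole lists the medians were 1.02 over 811 shared sites on LXRβ and 1.09 over 15391 that did not overlap it. This split was made after the values were seen, the ranges overlap, and it was not tested.

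**Figure D4:**
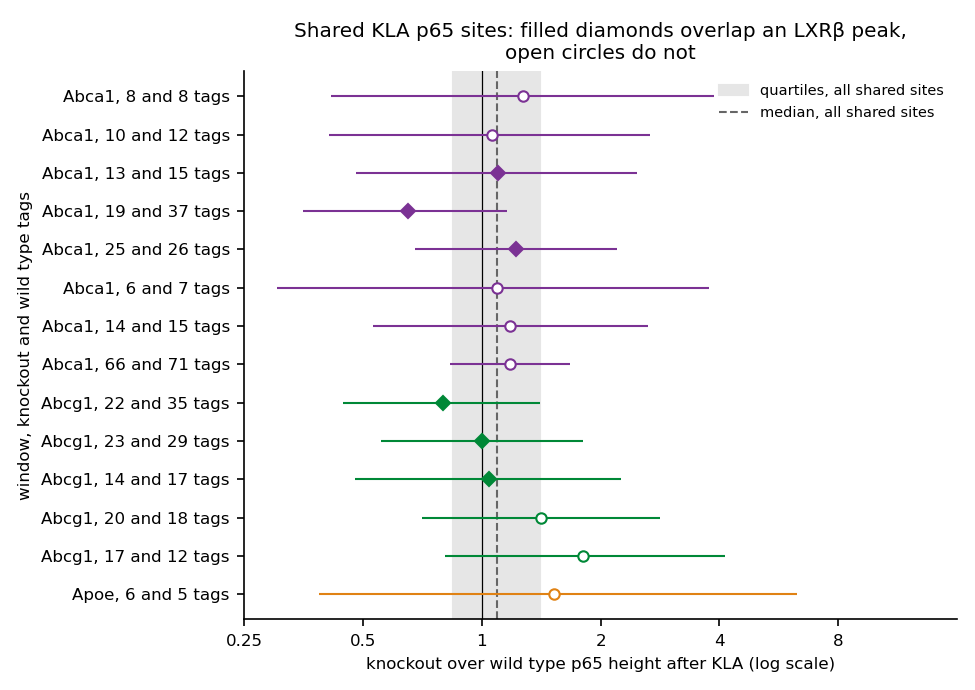
Ratio of knockout over wild type p65 height after KLA (log axis) at the 14 shared sites, with exact 95% intervals of the counts and the tags of each genotype at the left. All 14 intervals cross 1, on 5 to 71 tags per peak. The grey band and dashed line give the quartiles 0.845 and 1.4 and the median 1.09 of all 16202 shared sites.

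In the whole lists 71.7% of knockout and 54.0% of wild type KLA peaks overlapped a peak of the other genotype. In the windows 7 KLA p65 sites were listed in 1 genotype only. The 3 knockout ones had 47.8, 65.7 and 29.9, of which the 65.7 peak was above its list's median of 53.8, and the 4 wild type ones had 23.6, 37.7, 28.3 and 23.6, all below their list's median of 42.4. Of the wild type ones, 3 lay below 29.9, the lowest height that the knockout list holds. None overlapped an LXRβ peak, and few KLA p65 peaks of the whole lists did, 4.23% in knockout and 3.87% in wild type macrophages. From the 65.7 knockout peak the nearest wild type p65 centre was 4268 bp away, and from the 47.8 one it was 816 bp away. The 29.9 knockout peak and the 28.3 wild type peak at Abcg1 were 1102 bp from each other. From the 37.7 wild type peak the nearest knockout centre was 568 bp away, from the 23.6 peak at Abca1 it was 5692 bp and from the one at Apoe 32177 bp.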

How the data were processed

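ChIP-seq peak lists of 5 libraries, 1 per group, were analysed, of 23 samples in the series. Per the submitters' processing notes, the authors aligned reads to mm9 with Bowtie 0.12.7 and used HOMER, whose version is not given in the sources used here. Each library had its own findPeaks run in factor mode, with at most 1 tag per bp, a false discovery rate of 0.001 and 4-fold over the surrounding 10000 bp, per the file headers. The wild type KLA list had no input, and genome size was set to 2000000000 there and for LXRβ and to 4000000000 elsewhere, per the file headers. The deposited normalized tag count is a signal per 10000000 tags. The deposited findPeaks score gave the tags of each LXRβ peak, and for p65 it served only as an alternative. The deposited count of total tags, the authors' fold over local signal and input, and the authors' focus ratio, a fraction, served only to describe peaks or as alternatives. The score differed from the tags at 11 of 18 wild type KLA peaks in the windows.

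Windows and genes were chosen, and all comparisons made, with earlier results of these data known. Peaks overlapping by 1 bp or more were called shared, with Python 3.11.15, pandas 2.3.3 and scipy 1.17.1, and the overlap code was checked on simulated peaks and against bedtools 2.31.1. For p65, tags per peak were recovered as height over the height of 1 tag. For LXRβ, the tags were the deposited score, and the height of 1 tag was the list's median of height over score. Intervals were exact Poisson for heights, conditional binomial for ratios and Clopper-Pearson for shares, at 95%, and cover counting error only. A ratio of 1.5 or more, or its inverse or less, was counted as higher or lower. With 1 library per group no test between groups was run. The text names every LXRβ peak, every untreated p65 peak and the 5 tallest KLA p65 sites of each window. One-genotype peaks and the site outside the Apoe window were named after their values were seen.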

Additional observations from a re-analysis of the deposited data

How the results depend on the processing

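LXRβ peaks meeting KLA p65 numbered 6 in each genotype, and 4 to 7 in knockout and 5 to 8 in wild type under the other overlap rules and the taller 50% of p65 peaks. Keeping the taller 50% of each list left 11 of 18 wild type KLA peaks and 1 of 3 untreated knockout peaks. Sites higher in knockout numbered 1 per bp of width and 0 at a fold of 2. Sites lower in knockout numbered 0 at a fold of 2 and 0 when centres had to lie within 100 bp, which removed the one site with a larger shift. The median ratio ranged from 1.04 to 1.18. Of 41 alternative values for counts and medians 35 stayed within 1.5 times the reported one. Ranking LXRβ peaks by total tags, chosen after seeing the data, moved the tallest Abca1 peak to rank 8 and left the other 12 ranks within 1.5 times. No paired analysis was possible because each group has 1 library. Depth limits the untreated p65 lists, whose lowest peaks rest on 5 tags.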
